A study of Homo sapiens with 6 samples.

Results

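The genes described here encode nuclear subunits of the mitochondrial respiratory chain and the ATP synthase (complexes I to V). They were taken from a list of 48 genes, and a gene was measured through probe sets that the platform annotation gives to that gene alone. Of the 48 genes, 44 had such a probe set and all 44 were tested, among 12630 genes tested in the series. These were 20 of 21 listed genes of complex I, 3 of 4 of complex II, 5 of 7 of complex III, 9 of 9 of complex IV and 7 of 7 of complex V. NDUFS8 and UQCRH were read only by probe sets that also match other genes and were left out, and 2 further listed genes were not analysed here.

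The 6 Affymetrix expression arrays measured RNA of A549, a human line of non-small cell lung cancer. Stable sublines had been made with lentiviral vectors carrying a tetracycline-inducible short hairpin RNA (shRNA). The groups were shCNOT3-1 and shCNOT3-2, whose hairpins match different sequences of CNOT3, each given doxycycline (DOX, 1 ug/ml) for 72 hours, and the same lines without DOX. The controls were the line with a non-targeting hairpin (shNTC) with DOX and without it, so that shNTC carries the vector and the DOX exposure but no CNOT3 hairpin. Each line and DOX state had 1 array, each hairpin was present in a single line, and the labels do not describe repeat cultures, so the spread behind each p-value is that among these arrays and may be technical. CNOT3 belongs to CCR4-NOT, the main deadenylase of human cells, which removes the poly(A) tails of mRNAs and so controls how long they last.

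Complexes I and II pass electrons from NADH and succinate to ubiquinone, complex III passes them on to cytochrome c, and complex IV hands them to oxygen. Complexes I, III and IV pump protons across the inner mitochondrial membrane as they do so, and complex V, the ATP synthase, uses the returning protons to make ATP. Apart from complex II, each complex joins subunits made from nuclear genes with subunits made inside mitochondria from mitochondrial DNA. Doxycycline is a tetracycline, a class of antibiotics known to slow mitochondrial ribosomes, and the shNTC line is the control for the drug.

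The CNOT3 probe set gave an intensity of 81.9 with DOX against 226.9 without in shCNOT3-1, 46.9 against 228.2 in shCNOT3-2, and 165.9 against 177.6 in shNTC. With DOX 36.1% of the level without it was left in shCNOT3-1 and 20.5% in shCNOT3-2, against 93.4% in shNTC. All 5 epithelial markers and all 4 NRF2 targets known to be high in A549 lay above the dimness filter (an intensity of 61.4), against 2 of 4 fibroblast, 1 of 3 immune and 1 of 3 endothelial markers with a probe set used here. The summed intensity of the fibroblast markers was 715 and 537 on the shCNOT3 DOX arrays and 515 and 534 without DOX, against 483 and 578 in shNTC with and without DOX. Over the 6 arrays the immune markers summed to 209 to 337 and the endothelial markers to 144 to 362. Log2 values of any pair of arrays correlated at r = 0.954 to 0.983, and median intensity was 64.9 to 72.8. Since arrays of bulk RNA are read, fewer cells of a type and less RNA per cell cannot be told apart.

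No respiratory chain gene passed the test for the effect of DOX in the shCNOT3 lines, and the differences were small, downward for most genes in shCNOT3-2 but not in shCNOT3-1. In shCNOT3-2, 39 of 44 genes (88.6%) had a lower intensity with DOX than without it, where 48.2% of all genes tested did. In shCNOT3-1 the genes were split evenly, 22 of 44 (50%) being lower against 45.5% of all genes, and in shNTC 18 of 44 (40.9%) were lower against 51.2% of all genes. The median log2 difference (DOX minus no DOX) over the 44 genes was -0.0021 in shCNOT3-1 and -0.19 in shCNOT3-2, against 0.04 in shNTC. Over all genes tested the medians were 0.05, 0.02 and -0.01 in the same lines.

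Taken over both hairpin lines, 20 of the 44 genes (45.5%) were lower with DOX in both, where 26.9% of all genes were, and 3 of 44 (6.82%), NDUFS3, NDUFS4 and UQCRC1, were higher in both, where 33.2% of all genes were. As 39 of the 44 were lower in shCNOT3-2, the count lower in both is close to the 22 lower in shCNOT3-1. It says little about agreement between the hairpins. The genes are bright, with a median intensity percentile of 96.2 among genes tested. All 44 were among the 7951 genes tested that lay above the 75th percentile of all probe sets. Among these 7951 genes the shares lower and higher in both lines were 28.9% and 33.3%. That cut keeps most of the genes tested, whereas the lowest of the 44 had a percentile of 73.7 among them. The 7951 genes thus reach well below the 44 and are not matched to them for brightness. The part of brightness in these shares was not tested. Both shCNOT3 arrays with DOX lay below both shCNOT3 arrays without DOX for 17 of 44 genes (38.6%, against 20.7% of all genes), and above both for 2 (4.55%, against 26.2%), NDUFS3 and NDUFS4. Set against the control line, both shCNOT3 differences lay below the shNTC difference for 21 of 44 genes (47.7%, against 31.8% of all genes) and above it for 7 (15.9%, against 39%). These shares are descriptions over genes that share arrays, and were not tested.

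The size of the differences was limited. No gene of the 44 was 1.5-fold lower in both shCNOT3 lines, where 2.68% of all genes were, and none was 1.5-fold higher in both, where 3.25% were. Shares this low leave room for few genes among 44, so these counts of 0 say little. The all-gene values in this paragraph were not matched for brightness. The knockdown term, which is the mean log2 difference of the shCNOT3 lines in limma with the line as a block, had a median absolute size of 0.11 over the 44 genes, against 0.24 over all genes tested. It had an adjusted p under 0.05 for 28 of 12630 genes (0.222%) and for 0 of the 44. At an unadjusted p under 0.05 it gave 2 of the 44 as lower, NDUFB1 and COX7B, where 7.08% of all genes were lower, and 0 as higher, where 7.45% were. The change beyond shNTC, which takes the shNTC difference away, had an adjusted p under 0.05 for 0 of the 44 and 0% of all genes. Its unadjusted p was under 0.05 for 4 of the 44, all lower (NDUFA1, COXFA4, NDUFB1 and COX6A1), where 3.92% of all genes were lower, and for 0 higher, where 4.48% were.

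The data bound the knockdown term as well, which does not take the shNTC difference away. Its 95% interval lay within 2-fold either way for 44 of 44 genes, where it did so for 66.9% of all genes tested. For 35 of 44 (79.5%, against 21.7% of all genes) it lay within 1.5-fold. These shares were not matched for brightness, and the prior variance followed intensity. The intervals thus lean on spread borrowed from other genes through limma's prior, and not only on each gene's own arrays. With no intensity trend in the prior, the unadjusted p in limma was 0.0966 for NDUFB1 (0.0158 with it) and 0.160 for COX7B (0.0276 with it). The 95% interval of the change beyond shNTC passed 2-fold downward for NDUFA1, NDUFA10, NDUFB1, ATP5F1D, NDUFS7 and COXFA4, and upward for SDHA. Its bounds reached -1.43 (NDUFA1) and 1.20 (SDHA) in log2. For 32 of 44 genes (72.7%, against 59.7% of all genes) the 3 lines differed among themselves without DOX, as a log2 range, by more than the knockdown term. The hairpins ranked the 44 genes only loosely alike, with r = 0.20 across genes (rho = 0.20), against r = 0.26 across all genes tested. Genes of one array are not independent of each other, and no test was made.

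**Figure D1:**
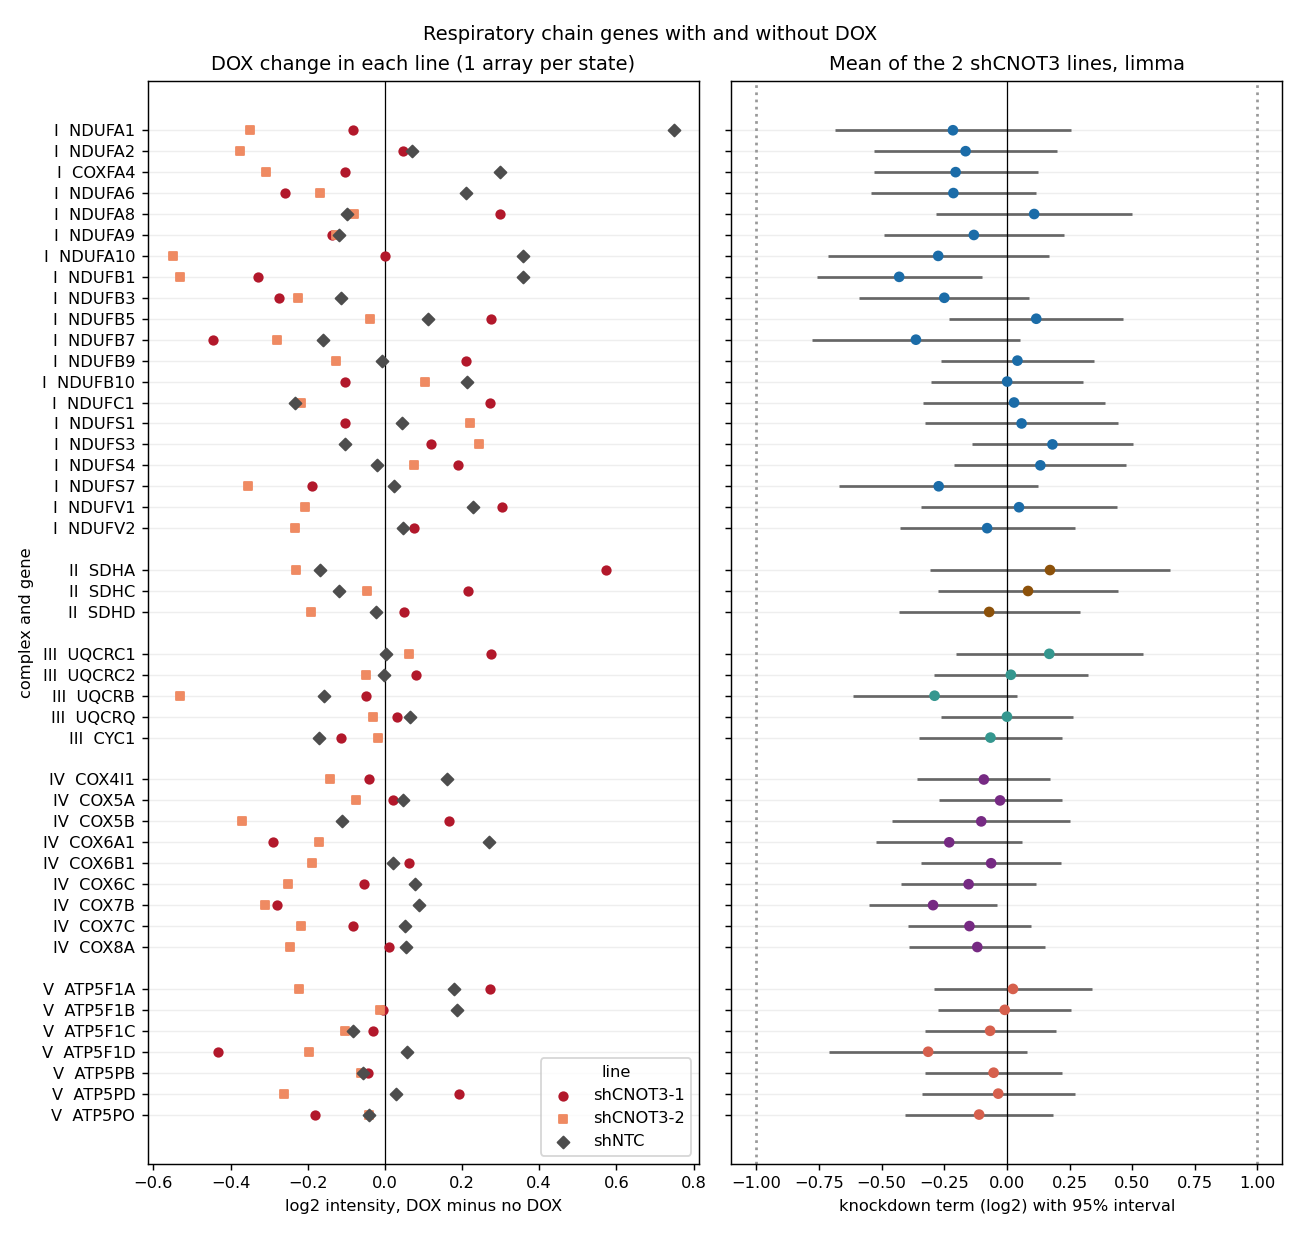
Left, the log2 difference in intensity (DOX minus no DOX) of each of the 44 genes, by complex, in shCNOT3-1 (circles), shCNOT3-2 (squares) and shNTC (diamonds), from 1 array per state. Right, the knockdown term with its 95% interval; dotted lines mark 2-fold either way, which all 44 intervals stay within, and the intervals of NDUFB1 and COX7B lie below 0 before adjustment for the number of genes.

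The ratio of the 3′ to the 5′ beta-actin control probe sets, a sign of RNA integrity, also differed with DOX by line. It was 1.42 with DOX against 1.33 without in shCNOT3-1, 1.45 against 1.36 in shCNOT3-2, and 1.47 against 1.58 in shNTC. The ratio for GAPDH was 1.03 with DOX against 0.98 without in shCNOT3-1, 1.05 against 1.09 in shCNOT3-2, and 0.966 against 0.980 in shNTC. For GAPDH, shCNOT3-2 thus did not share the direction of shCNOT3-1. The part of RNA quality in the differences between the shCNOT3 lines and shNTC was not tested.

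The 5 genes with an unadjusted p under 0.05 in either model encode small subunits without redox centres, as do many others of the 44. NDUFA1, an accessory subunit with a single membrane span that complex I needs for its assembly, had intensities of 18582 (DOX) and 19667 (no DOX) in shCNOT3-1 and 14812 and 18867 in shCNOT3-2, against 26227 and 15606 in shNTC. The shCNOT3-2 DOX array was the lowest of the 6, the shNTC DOX array the highest, and the shNTC array without DOX was the second lowest. The change beyond shNTC was -0.96 in limma (95% interval -1.43 to -0.50, unadjusted p = 0.00102, adjusted p = 0.28), the largest of the 44 in size, and the knockdown term was -0.22. The shNTC difference was 0.75, and those in the shCNOT3 lines were -0.08 and -0.35.

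NDUFB1, an accessory subunit of the membrane arm of complex I, had an intensity of 14082 with DOX against 17682 without in shCNOT3-1, 13829 against 19993 in shCNOT3-2, and 19721 against 15398 in shNTC. Both shCNOT3 arrays with DOX lay below all of the others, and in shNTC the order was the opposite. The knockdown term was -0.43 (SD 0.14 between the shCNOT3 lines) in limma (95% interval -0.76 to -0.10, unadjusted p = 0.0158, adjusted p = 0.238), and the change beyond shNTC was -0.79 (unadjusted p = 0.0039, adjusted p = 0.35). A second, dim NDUFB1 probe set read 93.8 with DOX against 98.6 without in shCNOT3-1, 64.6 against 69.8 in shCNOT3-2, and 17.3 against 91.9 in shNTC. It gave a knockdown difference of -0.09 and, with its shNTC DOX array low, a change beyond shNTC of 2.25, so the direction of that contrast turns with the probe set.

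COXFA4 (NDUFA4), first described in complex I and now regarded as a subunit of complex IV, had intensities of 12080.4 (DOX) and 12971 (no DOX) in shCNOT3-1 and 11443.5 and 14156 in shCNOT3-2, against 14953 and 12162 in shNTC. The shCNOT3 DOX arrays were the lowest of the 6 and the shNTC DOX array the highest. Its change beyond shNTC was -0.50 in limma (95% interval -1.005 to -0.00066, unadjusted p = 0.0498, adjusted p = 0.594). COX6A1, the isoform of a complex IV subunit that is used outside heart and skeletal muscle, had an intensity of 17579 with DOX against 21480.3 without in shCNOT3-1, 17326 against 19513 in shCNOT3-2, and 23640.5 against 19611 in shNTC. It showed the same order of arrays, with a change beyond shNTC of -0.50 in limma (95% interval -0.93 to -0.07, unadjusted p = 0.027, adjusted p = 0.533).

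COX7B, a small membrane-spanning subunit of complex IV, had intensities of 19956 (DOX) and 24226 (no DOX) in shCNOT3-1 and 18393.5 and 22803 in shCNOT3-2, against 19948 and 18779 in shNTC. The shCNOT3 lines gave like log2 differences, at -0.28 and -0.31, against 0.09 in shNTC. However, their DOX arrays lay at the level of the shNTC arrays, and it was their arrays without DOX that stood higher. The knockdown term was -0.29 (SD 0.02 between the shCNOT3 lines) in limma (95% interval -0.55 to -0.04, unadjusted p = 0.0276, adjusted p = 0.286). A second, much dimmer COX7B probe set was lower with DOX in every line, with log2 differences of -0.50 and -1.12 in the shCNOT3 lines against -0.85 in shNTC.

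**Figure D2:**
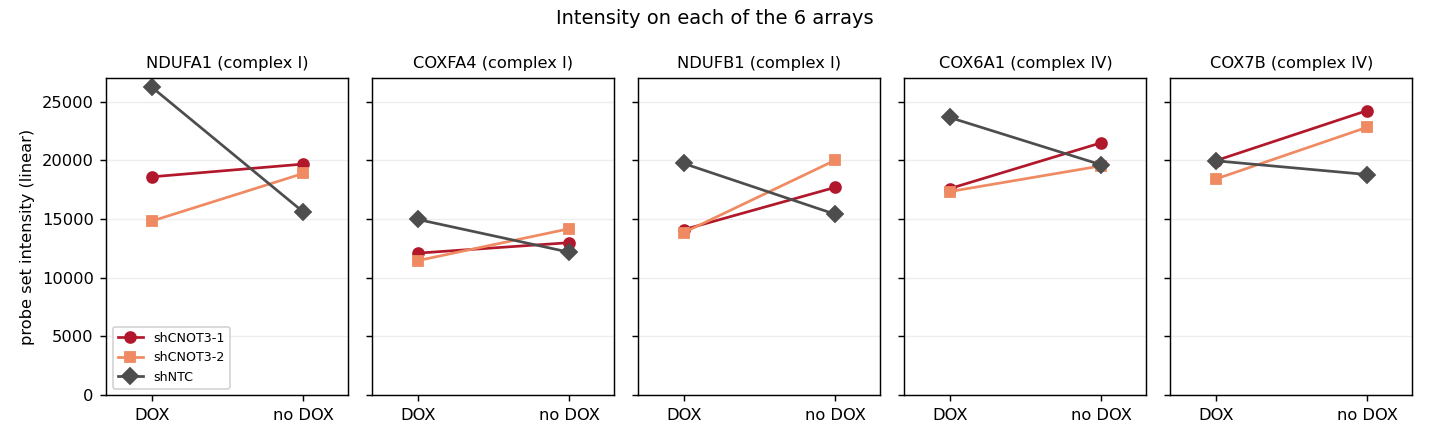
Probe set intensity (linear axis from 0) on each of the 6 arrays for the 5 genes with an unadjusted p under 0.05 in either model, with DOX left of no DOX; each line joins the pair of arrays of 1 cell line. In shCNOT3-1 and shCNOT3-2 the DOX array is the lower of the pair for all 5 genes, and in shNTC it is the higher.

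Promoters of many respiratory chain genes are bound by the factors NRF1 and GABP, the second of which recognises an ETS motif, and some by YY1. The 250 bases before the start of these 5 genes are shown because they are the genes with the lowest p-values, so that shared motifs can be looked for. Sequences are from RefSeq (GRCh38.p14), in the direction of transcription, and capitals mark matches to GCATGCGC (NRF1), CTTCCGG (ETS) or AAGATGGCG (YY1) on either strand; none of these motifs contains another.
NDUFA1, chrX:119871582-119871831, plus strand: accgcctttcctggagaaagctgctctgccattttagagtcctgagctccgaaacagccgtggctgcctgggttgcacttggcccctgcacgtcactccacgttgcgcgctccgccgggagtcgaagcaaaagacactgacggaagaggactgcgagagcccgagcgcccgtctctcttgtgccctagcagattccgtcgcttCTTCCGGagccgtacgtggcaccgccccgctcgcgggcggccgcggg
NDUFB1, chr14:92121707-92121956, minus strand: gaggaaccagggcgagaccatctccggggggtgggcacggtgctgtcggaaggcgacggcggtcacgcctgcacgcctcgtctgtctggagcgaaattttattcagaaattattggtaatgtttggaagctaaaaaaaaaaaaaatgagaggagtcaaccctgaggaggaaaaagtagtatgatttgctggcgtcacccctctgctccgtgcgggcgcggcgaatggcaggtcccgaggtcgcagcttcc
COXFA4, chr7:10940154-10940403, minus strand: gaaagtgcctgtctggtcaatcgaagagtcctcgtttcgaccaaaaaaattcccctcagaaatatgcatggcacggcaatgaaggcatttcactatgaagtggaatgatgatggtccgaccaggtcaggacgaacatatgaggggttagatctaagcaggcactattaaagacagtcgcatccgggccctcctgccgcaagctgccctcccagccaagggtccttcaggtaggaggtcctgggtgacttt
COX6A1, chr12:120437863-120438112, plus strand: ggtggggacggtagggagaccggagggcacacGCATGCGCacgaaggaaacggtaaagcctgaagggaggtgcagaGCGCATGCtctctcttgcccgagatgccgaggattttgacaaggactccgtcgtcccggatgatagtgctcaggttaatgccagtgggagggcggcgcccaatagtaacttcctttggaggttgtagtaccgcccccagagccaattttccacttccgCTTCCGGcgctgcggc
COX7B, chrX:77899218-77899467, plus strand: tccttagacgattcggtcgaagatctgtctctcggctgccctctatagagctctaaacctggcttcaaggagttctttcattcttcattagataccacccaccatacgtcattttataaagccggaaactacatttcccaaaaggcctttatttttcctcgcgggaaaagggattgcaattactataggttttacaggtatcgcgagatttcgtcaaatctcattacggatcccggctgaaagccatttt
The COX6A1 window held an NRF1 match at 174 and another at 218 bases before the start and an ETS match at 16 bases, and the NDUFA1 window held an ETS match at 47 bases. The windows of NDUFB1, COXFA4 and COX7B held none of these motifs, so the 5 promoters share no match.

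A promoter window was at hand for 36 of the 44 genes. An NRF1 match was present in 6 (16.7%), against 4.6% of the 10312 genes tested with a window, and an ETS match in 11 (30.6%), against 15.7%. Either was present in 14 (38.9%, against 19.3%), both in 3 (COX5B, COX6A1 and SDHD), and a YY1 match in 0 (against 1.09%). A share of 1.09% leaves little room for a match among 36 genes, so this count of 0 says little. Bases at or after the start were not searched. The median knockdown term was -0.16 for the 6 genes with an NRF1 match and -0.06 for those without, and -0.07 for the 11 with an ETS match and -0.08 for those without. A match is a description of these letters and not of a bound site.

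Complex I had medians of -0.04 in shCNOT3-1 and -0.21 in shCNOT3-2, against 0.05 in shNTC. Of its 20 genes, 16 were lower with DOX in shCNOT3-2 (48.2% of all genes tested) and 10 in shCNOT3-1 (45.5%). In both shCNOT3 lines 8 were lower (26.9% of all genes tested) and 2 were higher (33.2%). The other 10 went opposite ways, as did 5042 of all 12630 genes. Core subunits, which carry the flavin and the iron-sulphur clusters, did not share a direction. NDUFV1, which binds NADH and the flavin, had an intensity of 7523 with DOX against 6092 without in shCNOT3-1, 5667 against 6544 in shCNOT3-2, and 7301 against 6237 in shNTC. It was higher with DOX in shCNOT3-1 and shNTC and lower in shCNOT3-2. NDUFV2, a neighbouring iron-sulphur subunit, had log2 differences of 0.08 and -0.23 in the shCNOT3 lines against 0.05 in shNTC. NDUFS1, the large iron-sulphur subunit of the NADH-oxidising module, had intensities of 3692.5 (DOX) and 3966 (no DOX) in shCNOT3-1 and 3607 and 3097 in shCNOT3-2, against 3516 and 3408 in shNTC. The ranges overlapped and the knockdown term was 0.06.

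NDUFS3 and NDUFS7 sit in the arm that reduces ubiquinone, and NDUFS7 carries the last iron-sulphur cluster before it. NDUFS3 had an intensity of 7775 with DOX against 7160.4 without in shCNOT3-1, 8797 against 7425 in shCNOT3-2, and 7254 against 7798 in shNTC. It had the highest knockdown term of the 44 genes at 0.18 (95% interval -0.14 to 0.50, adjusted p = 0.606 in limma), although its shCNOT3-1 DOX array lay below the shNTC array without DOX. NDUFS7 went the other way, with log2 differences of -0.19 and -0.36 in the shCNOT3 lines against 0.02 in shNTC and a knockdown term of -0.27 (adjusted p = 0.525 in limma). NDUFS4, an accessory subunit of the NADH-oxidising module that is mutated in Leigh syndrome, had log2 differences of 0.19 and 0.08 in the shCNOT3 lines against -0.02 in shNTC.

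Accessory subunits of complex I do no electron transfer but hold the complex together. NDUFA10, in the membrane arm, had intensities of 5144 (DOX) and 5142 (no DOX) in shCNOT3-1 and 3647 and 5337 in shCNOT3-2, against 5309 and 4139.8 in shNTC. The shCNOT3-2 DOX array was the lowest of the 6, and the hairpin lines differed by 0.55 on the log2 scale, the most in this complex. NDUFB7, an intermembrane space subunit, had an intensity of 1673 with DOX against 2279 without in shCNOT3-1, 1553 against 1887 in shCNOT3-2, and 1955 against 2186 in shNTC. Its knockdown term of -0.36 (95% interval -0.78 to 0.05, adjusted p = 0.412 in limma) was the lowest in the complex after NDUFB1, and the gene was lower with DOX in all 3 lines. A dim second NDUFB7 probe set gave 0.34.

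The remaining accessory subunits had knockdown terms between -0.25 (NDUFB3) and 0.12 (NDUFB5). NDUFB3, in the membrane arm, had log2 differences of -0.28 and -0.22 in the shCNOT3 lines against -0.11 in shNTC, and NDUFA6, a LYR-motif protein that holds a mitochondrial acyl carrier, had -0.26 and -0.17 in the shCNOT3 lines against 0.21 in shNTC. NDUFA9, next to the ubiquinone site, had nearly the same difference in every line at -0.14 and -0.13 in the shCNOT3 lines against -0.12 in shNTC. NDUFA2, of the NADH-oxidising module, had 0.05 and -0.38 in the shCNOT3 lines against 0.07 in shNTC. The hairpins had opposite signs for NDUFA8, NDUFB5, NDUFB9 and NDUFC1, all in the membrane arm and all higher with DOX in shCNOT3-1 (by 0.21 to 0.30) and lower in shCNOT3-2 (-0.22 to -0.04), with -0.23 to 0.11 in shNTC. NDUFB10, also in the membrane arm, had the opposite pattern, with -0.10 and 0.10 in the shCNOT3 lines against 0.21 in shNTC.

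Complex II is also the succinate dehydrogenase of the citric acid cycle and has no mitochondrially encoded subunit. It was the one complex in which the hairpin lines went opposite ways for every gene tested. These were 3 genes, and 5042 of all 12630 genes also went opposite ways. The medians were 0.21 in shCNOT3-1 and -0.19 in shCNOT3-2, against -0.12 in shNTC. SDHA, the flavoprotein that oxidises succinate, had intensities of 4606.5 (DOX) and 3094 (no DOX) in shCNOT3-1 and 2849.5 and 3343 in shCNOT3-2, against 3196 and 3589.9 in shNTC. Only the shCNOT3-1 DOX array stood above the others, and the gap between hairpins of 0.80 was the largest of the 44 genes. SDHA is read by a probe set of the x_at kind, which can bind several transcripts. SDHC, a membrane anchor that binds haem and ubiquinone, had an intensity of 5754.5 with DOX against 4959.9 without in shCNOT3-1, 5121 against 5287 in shCNOT3-2, and 5094.5 against 5536 in shNTC. Its groups overlapped, and other SDHC probe sets above the dimness filter gave hairpin means between -0.43 and 0.11. SDHD, the other anchor, had log2 differences of 0.05 and -0.19 in the shCNOT3 lines against -0.02 in shNTC.

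Complex III had medians near 0, at 0.03 in shCNOT3-1 and -0.03 in shCNOT3-2, against -0.0022 in shNTC. UQCRC1 and UQCRC2 are its large core subunits and face the matrix. UQCRC1 had intensities of 4626 (DOX) and 3822 (no DOX) in shCNOT3-1 and 3392 and 3247 in shCNOT3-2, against 3571 and 3562 in shNTC. It was higher with DOX in both hairpin lines, by 0.28 and 0.06, against 0.0034 in shNTC. UQCRC2 had an intensity of 10809 with DOX against 10224 without in shCNOT3-1, 8539 against 8833 in shCNOT3-2, and 8459 against 8472 in shNTC. Its groups overlapped, and a second bright UQCRC2 probe set differed by -1.01 in shNTC, where the one used gave -0.0022.

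UQCRB, a small subunit that takes part in ubiquinone binding, had intensities of 18472 (DOX) and 19095 (no DOX) in shCNOT3-1 and 13548.5 and 19562 in shCNOT3-2, against 13672 and 15251.5 in shNTC. The shCNOT3-2 DOX array was the lowest of the 6 and the shCNOT3-1 DOX array was near its level without DOX. The knockdown term was -0.29 (95% interval -0.62 to 0.04, adjusted p = 0.406 in limma). A second bright UQCRB probe set differed by 0.61 in shNTC, where the one used gave -0.16. In the shCNOT3 lines that second probe set gave -0.05 and -0.48. UQCRQ, a small membrane subunit, had log2 differences of 0.03 and -0.03 in the shCNOT3 lines against 0.06 in shNTC, and CYC1, the haem-bearing cytochrome c1, had -0.11 and -0.02 in the shCNOT3 lines against -0.17 in shNTC.

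In complex IV, the cytochrome c oxidase, all 9 genes were lower with DOX in shCNOT3-2, where 48.2% of all genes tested were. In shCNOT3-1 5 of 9 were lower, against 45.5% of all genes. The same 5 were therefore lower in both hairpin lines, against 26.9% of all genes. In shNTC 8 of 9 were higher with DOX, as were 6161 of all 12630 genes. The medians were -0.04 in shCNOT3-1 and -0.22 in shCNOT3-2, against 0.06 in shNTC. For 7 of 9 genes both hairpin differences lay below the shNTC difference, against 31.8% of all genes. They lay above it for 0 of 9, against 39%. Every 95% interval of the knockdown term lay within 1.5-fold, against 21.7% over all genes, most of which are dimmer. With COXFA4 counted here the median knockdown term was -0.13, against -0.12 without it, and complex I without COXFA4 had -0.08, against -0.11 with it.

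COX6A1 and COX7B of this complex are described above with their promoters. COX4I1, the widespread isoform of a subunit through which ATP regulates the enzyme, had an intensity of 20594 with DOX against 21192 without in shCNOT3-1, 18844 against 20806 in shCNOT3-2, and 24109.7 against 21556 in shNTC. The shCNOT3 DOX arrays lay just below the arrays without DOX and the shNTC DOX array above them. COX5B, a zinc-binding subunit on the matrix side, had intensities of 12326 (DOX) and 10992 (no DOX) in shCNOT3-1 and 9310.0 and 12033 in shCNOT3-2, against 10397 and 11231 in shNTC. The hairpins went opposite ways and differed by 0.54, the most in this complex.

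Of the others, COX6C, a small membrane-spanning subunit, had log2 differences of -0.05 and -0.25 in the shCNOT3 lines against 0.08 in shNTC. COX7C and COX8A are small membrane-spanning subunits as well. COX7C had -0.08 and -0.22 in the shCNOT3 lines against 0.05 in shNTC, and COX8A had 0.01 and -0.25 in the shCNOT3 lines against 0.06 in shNTC. COX5A, a matrix-side subunit, had 0.02 and -0.08 in the shCNOT3 lines against 0.05 in shNTC, and COX6B1, which faces the intermembrane space and binds near cytochrome c, had 0.06 and -0.19 in the shCNOT3 lines against 0.02 in shNTC. The largest of these in size was the -0.25 of COX6C in shCNOT3-2.

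**Figure D3:**
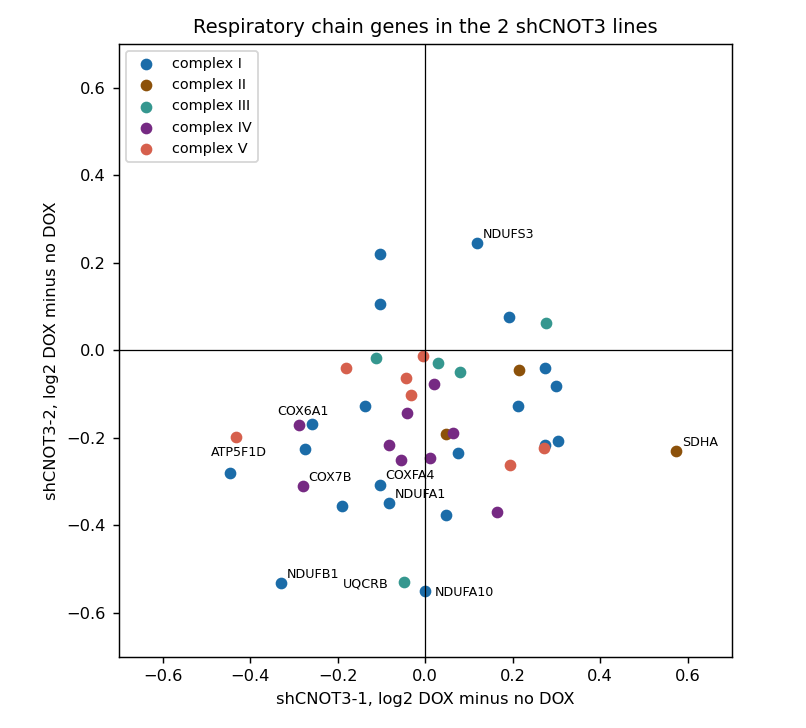
Log2 difference in intensity (DOX minus no DOX) of the 44 genes in shCNOT3-1 (horizontal) against shCNOT3-2 (vertical), 1 point per gene, coloured by complex. Points crowd below the horizontal line, with 39 genes lower in shCNOT3-2, but lie evenly on both sides of the vertical one, with 22 lower in shCNOT3-1.

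Complex V had medians of -0.03 in shCNOT3-1 and -0.10 in shCNOT3-2, against 0.03 in shNTC. Of its 7 genes, 5 were lower with DOX in both hairpin lines (26.9% of all genes tested) and 0 were higher in both (33.2%). All 7 were lower in shCNOT3-2 (48.2% of all genes), so these 5 are those lower in shCNOT3-1 (45.5%). Its catalytic head is built of ATP5F1A and ATP5F1B, the alpha and beta subunits. ATP5F1A (ATP5A1) had an intensity of 25469.5 with DOX against 21090.1 without in shCNOT3-1, 20287 against 23692 in shCNOT3-2, and 28344.5 against 25019 in shNTC. The DOX array was the higher in shCNOT3-1 and shNTC and the lower in shCNOT3-2. ATP5F1B (ATP5B) had intensities of 22058 (DOX) and 22131 (no DOX) in shCNOT3-1 and 20991 and 21173 in shCNOT3-2, against 22981 and 20206 in shNTC. It was nearly level in the hairpin lines, with differences of -0.0048 and -0.01, and its knockdown term was -0.0086 (95% interval -0.27 to 0.26 in limma).

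The central stalk turns inside that head. ATP5F1C (ATP5C1), its gamma subunit, had log2 differences of -0.03 and -0.10 in the shCNOT3 lines against -0.08 in shNTC. ATP5F1D (ATP5D), its delta subunit, had an intensity of 2113 with DOX against 2851.5 without in shCNOT3-1, 2696 against 3091 in shCNOT3-2, and 2705 against 2601 in shNTC. It had the lowest knockdown term in the complex at -0.31 (95% interval -0.71 to 0.08, adjusted p = 0.455 in limma), but a second, dimmer ATP5F1D probe set was higher with DOX in all 3 lines, by 0.44 and 0.34 in the hairpin lines and 0.24 in shNTC.

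The peripheral stalk keeps the head from turning. ATP5PD (ATP5H) had intensities of 22256 (DOX) and 19468 (no DOX) in shCNOT3-1 and 15891 and 19063 in shCNOT3-2, against 18144 and 17793 in shNTC. The hairpins went opposite ways, and a dim second probe set gave a hairpin mean of 0.54 where the one used gave -0.03. ATP5PB (ATP5F1) had much the same difference in every line at -0.04 and -0.06 in the shCNOT3 lines against -0.06 in shNTC, and ATP5PO (ATP5O) had -0.18 and -0.04 in the shCNOT3 lines against -0.04 in shNTC.

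**Figure D4:**
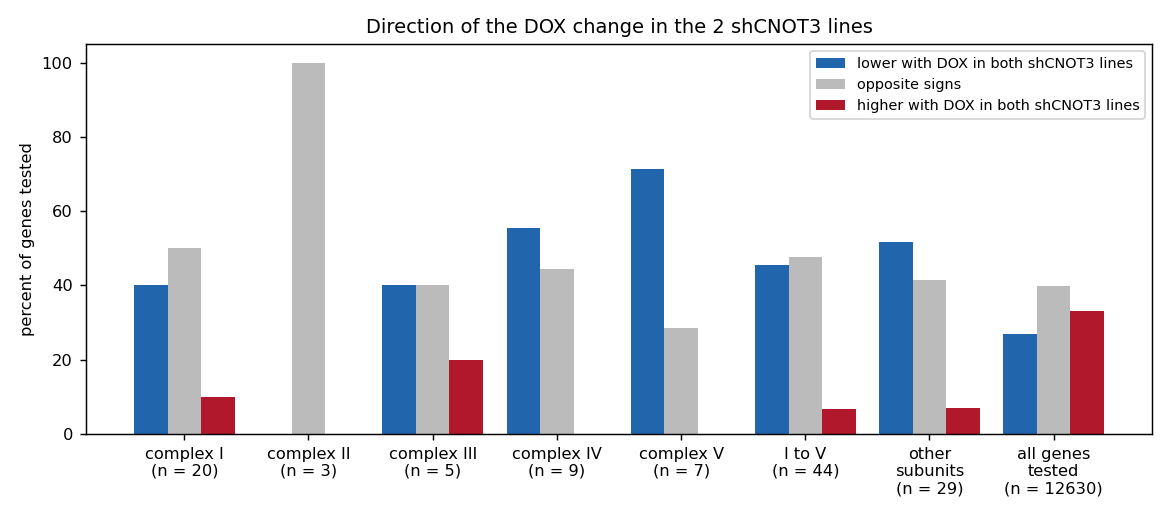
Percent of genes that were lower with DOX in both shCNOT3 lines, went opposite ways, or were higher in both, by complex, for complexes I to V together, for the other subunits and for all genes tested; n is the number of genes. Over complexes I to V 45.5% were lower in both and 6.82% higher, against 26.9% and 33.2% of all genes tested. Taken singly, 88.6% were lower in shCNOT3-2 and 50% in shCNOT3-1, against 48.2% and 45.5% of all genes tested.

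Probe sets of 1 gene did not always give the same sign. The 44 genes had 94 probe sets, of which 82 lay above the dimness filter. In the 22 genes with more than 1 such probe set, 23 of the 38 others had the sign of the one used. In 7 genes (NDUFB7, NDUFS1, NDUFV1, SDHC, UQCRC2, ATP5F1D and ATP5PD) they gave hairpin means of opposite sign more than 0.5 apart. Differences in shNTC were not compared in these counts. For 5 genes (SDHA, SDHC, COX4I1, COX7C and ATP5F1C) the probe set used was of the x_at kind.

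A further list held other subunits of the same complexes with some close partners, such as CYCS (cytochrome c) and ATP5IF1 (the inhibitor of the ATP synthase). Of 29 tested, 15 were lower with DOX in both hairpin lines (26.9% of all genes tested) and 2 higher in both (33.2%). Taken singly, 26 were lower in shCNOT3-2 (48.2% of all genes) and 16 in shCNOT3-1 (45.5%). The median knockdown term was -0.13. None had an adjusted p under 0.05 in limma in either model. In the knockdown term the unadjusted p was under 0.05 for 2 of 29, both lower, where 7.08% of all genes were. ATP5MC1, which makes part of the proton-turned ring of the ATP synthase, had a knockdown term of -0.40 (adjusted p = 0.269 in limma), and NDUFB2, an accessory subunit of complex I, had -0.37 (adjusted p = 0.308 in limma). For the change beyond shNTC the unadjusted p was under 0.05 for 5 of 29, all lower, where 3.92% of all genes were. These were ATP5PF (-0.76), UQCR10 (-0.77), NDUFB2 (-0.66), ATP5F1E (-0.49) and COX7A2 (-0.48). UQCR10 of complex III had log2 differences of -0.03 and -0.76 in the hairpin lines, against 0.37 in shNTC.

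Assembly factors, which build the complexes but are not part of them, were split in direction. Of 46 tested, 13 were lower in both hairpin lines (26.9% of all genes tested) and 18 higher in both (33.2%). The median knockdown term was 0.06, and none had an adjusted p under 0.05 in limma in either model. In the knockdown term the 2 of 46 with an unadjusted p under 0.05 were both lower, where 7.08% of all genes were. LYRM7, the chaperone of the iron-sulphur subunit of complex III, had an intensity of 1136 with DOX against 1576 without in shCNOT3-1, 474 against 1378 in shCNOT3-2, and 1751.5 against 1268 in shNTC. Its knockdown term was -1.005 (adjusted p = 0.16 in limma), and shNTC differed by 0.47. TMEM70, which helps build the ATP synthase, had -0.36 (adjusted p = 0.308 in limma). For the change beyond shNTC the unadjusted p was under 0.05 for LYRM7, which was lower (-1.47), where 3.92% of all genes were. It was also under 0.05 for 3 that were higher, where 4.48% of all genes were. These were SURF1 (1.02) and SCO2 (0.90), assembly factors of complex IV, and LRPPRC (0.645), which stabilises mitochondrial mRNAs. Their shNTC differences were -0.71, -0.43 and -0.35 in that order.

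Each of the other mitochondrial gene groups gave 1 gene at an unadjusted p under 0.05 in the knockdown term, and none with an adjusted p under 0.05 in limma in either model. Over all genes 7.08% were lower and 7.45% higher at that unadjusted p, and 3.92% and 4.48% in the change beyond shNTC. Of 15 citric acid cycle genes, OGDH, which encodes the E1 part of the 2-oxoglutarate dehydrogenase complex, had a knockdown term of 0.63 (adjusted p = 0.321), and the median was 0.22. Of 17 genes of mitochondrial biogenesis, GABPA, the DNA-binding part of GABP, had -0.54 (adjusted p = 0.344), with -0.43 in shNTC. Of 15 import and carrier genes, TOMM20, a receptor of the outer membrane import pore, had -0.47 (adjusted p = 0.153), with -0.04 in shNTC. In the same group the change beyond shNTC had an unadjusted p under 0.05 for VDAC2, an outer membrane channel, and TOMM40, the import pore, both higher (0.58 and 0.98), with shNTC differences of -0.42 and -1.17. Of 7 tissue-specific isoforms 2 were bright enough to test, and COX6A2, the heart and muscle isoform, was dim in every array at 48.3 to 147 and had a knockdown term of 1.25 (adjusted p = 0.244).

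All 7 mitochondrially encoded subunits with a probe set of their own were tested; this group was added after the annotation had been seen. ND2, a proton-pumping subunit of complex I, had intensities of 15512 (DOX) and 11166 (no DOX) in shCNOT3-1 and 12299.7 and 8688 in shCNOT3-2, against 14556 and 11503 in shNTC. It was higher with DOX in every line, with a knockdown term of 0.49 (adjusted p = 0.198 in limma) and a shNTC difference of 0.34. ND6, a complex I subunit encoded on the light strand, had log2 differences of -0.49 and -0.38 in the hairpin lines, against 0.53 in shNTC, and a change beyond shNTC of -0.96 (adjusted p = 0.555 in limma). The median knockdown term of the 7 was 0.05, with 2 lower and 3 higher in both hairpin lines (26.9% and 33.2% of all genes tested).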

How the data were processed

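The deposited values were probe set intensities on a linear scale, made by the authors with MAS5 per the submitters' processing notes (settings and genome build: not given in the sources used here). Per the labels' protocols, biotinylated cRNA was made from 500 ng of total RNA per sample. Every array had a trimmed mean (2% off each end) of 500.07 to 500.08, so no further scaling was applied. Precision is limited by the number of arrays.

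Intensities were taken to log2 after adding 1, so fold changes are on that scale. Probe sets annotated to 1 gene were kept (41091 of 54675), each gene was read from its brightest one, and the 7145 of 19775 genes with a mean log2 under 5.96 were left out. Symbols were updated to RefSeq (8 of the list had been renamed). The test was limma's (version 3.58.1, R 4.3.3), with an intensity trend in the prior variance, 2-sided, Benjamini-Hochberg adjustment over 12630 genes and a threshold of 0.05. The knockdown term was fitted on all 6 arrays with the line as a block, a pairing given by the labels since both arrays of a pair are the same stable line, and takes its spread from the shNTC pair and from the difference between the hairpin lines; the change beyond shNTC is the mean shCNOT3 difference minus the shNTC difference. The code was tested on simulated data. Tables were made with Python 3.11.15.

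The members, lists and tests were chosen with earlier results of these data known. Intensities on all arrays are given, per complex, for the members with the highest and lowest knockdown term among those whose hairpins share a sign, those with an unadjusted p under 0.05 in either model, the one whose hairpins differ most, and those whose probe sets give opposite signs over 0.5 apart. Of each other list, genes with an unadjusted p under 0.05 in the knockdown term are named, at most 4. Genes of those lists named for the change beyond shNTC were added after their values were seen. Alternatives covered scaling, the added constant, the probe set, the filter, the prior, the block, each line left out and the place of COXFA4.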

Additional observations from a re-analysis of the deposited data

How the results depend on the processing

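For the knockdown term no respiratory chain gene was called under any of 13 alternatives. These called only 0 to 67 genes of the whole series, so this says little about stability. The change beyond shNTC called 0% of all genes as reported, so its lack of calls says nothing about stability. Of 164 counts and medians 145 stayed close to the reported value (counts within 1.5 times, medians within the SD between the shCNOT3 lines), although 6 of 80 medians turned sign, all of them in complexes I to III. Of 312 values of single genes 291 kept their direction and their side of the threshold, and 21 turned sign. The count of genes lower in both shCNOT3 lines was 17 to 22, and the median knockdown term of the 44 genes -0.19 to -0.0021. With all probe sets of a gene averaged, 6 genes of the series were called (28 as reported), 2 of the 44 had an unadjusted p under 0.05 below shNTC (4 as reported), the complex III median was -0.066 (0.00016 as reported), and signs turned for the knockdown term of NDUFS1 (-0.075), NDUFV1 (-0.39), SDHC (-0.25), UQCRC2 (-0.088), ATP5F1D (0.037) and ATP5PD (0.25) and for NDUFB1 beyond shNTC (0.73). Without s_at and x_at probe sets 56 genes were called, 1 of the 44 was lower at an unadjusted p under 0.05 (2 as reported), the medians of complexes I, II and V were 0.00096, -0.07 and -0.17 (-0.11, 0.08 and -0.05 as reported), and signs turned for NDUFB7 (0.34), NDUFS1 (-0.14), SDHC (-0.43) and ATP5PD (0.54) and for NDUFB1 beyond shNTC (2.25). Quantile normalization left 2 of the 44 with an unadjusted p under 0.05 below shNTC in limma, and arrays shifted to one median gave a complex III median of -0.0059. With no filter on dim genes 3 genes were called, and at an unadjusted p under 0.05 in limma 1 of the 44 was lower and 2 were below shNTC. With the filter at the 75th percentile 51 genes were called. With no intensity trend in the prior 0 genes were called, and 0 of the 44 were lower or below shNTC at an unadjusted p under 0.05. A robust prior, chosen after seeing the data, called 67. The reasons for these moves were not tested, beyond the other probe sets read and the other number of genes tested. With a line left out 39 to 62 genes were called: 39 without shCNOT3-1, 62 without shCNOT3-2 and 57 without shNTC. Of the 44, 0 to 2 were then lower at an unadjusted p under 0.05 and 0 to 1 higher: NDUFB1 and UQCRB without shCNOT3-1, SDHA (higher) without shCNOT3-2, and NDUFB1 and COX7B without shNTC. Without a shCNOT3 line the spread comes from the shNTC pair alone, with limma's prior, and the remaining hairpin is assumed to vary like it. The values are then those of the remaining hairpin: the median of the 44 was -0.19 without shCNOT3-1 and -0.0021 without shCNOT3-2, and the medians of complexes II and III were -0.19 and -0.03 without shCNOT3-1. Signs turned without shCNOT3-1 for NDUFV1 (-0.21, against 0.30 without shCNOT3-2), SDHA (-0.23, against 0.57), SDHC (-0.046, against 0.21), UQCRC2 (-0.049, against 0.080) and ATP5F1A (-0.22, against 0.27). They turned without shCNOT3-2 for NDUFA10 (0.00057, against -0.55 without shCNOT3-1), NDUFS1 (-0.10, against 0.22), COX5B (0.17, against -0.37) and ATP5PD (0.19, against -0.26). The change beyond shNTC could not be tested with a line left out. Leaving out a shCNOT3 line leaves no residual degrees of freedom for it, and leaving out shNTC removes the difference it is set against. With no replicate block, and so with the pairing of arrays by line ignored, 19 genes were called and 0 of the 44.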
